A study of Mus musculus with 12 samples.

Results

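Gdpd3, which encodes a glycerophosphodiester phosphodiesterase that acts as a lysophospholipase D, was examined together with its antisense gene Gm9967 and with the enzymes Gdpd1, Gdpd5, Gde1, Napepld and Faah. These 7 genes were chosen by name, out of 53801 in the count table, because the level of Gdpd3 was already known to differ between Atg5-knockout and control eosinophils in these data, so that their values in the comparison of genotypes are given as a description without a test. Of the 7 genes, 6 encode enzymes and 1 is a long non-coding RNA. The lipid enzymes were grouped by the reactions they catalyse and not by how they moved.

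Glycerophosphodiester phosphodiesterases cleave the bond between the phosphate and the head group of glycerophospholipids that have lost acyl chains. Gdpd1 and Gdpd3 accept lysophospholipids and release lysophosphatidic acid, a lipid messenger read by G-protein-coupled receptors, and from N-acylated substrates also N-acyl ethanolamines, the class that includes anandamide. Gde1 works on fully deacylated glycerophospho-N-acyl ethanolamines and on glycerophosphoinositol, Gdpd5 on glycerophosphocholine, Napepld makes N-acyl ethanolamines directly from N-acyl phosphatidylethanolamine, and Faah breaks them down. Eosinophils are granulocytes that produce lipid mediators, for which the turnover of lysophospholipids provides substrates.

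The data were RNA-seq counts of eosinophils from bone marrow and blood of Atg5 flox/flox eoCre Il5tg mice, called Atg5-knockout here, and of eoCre Il5tg mice as control, with 3 libraries in each of the 4 groups. Both genotypes carried the Cre recombinase inserted at the eosinophil peroxidase locus, which confines it to eosinophils, and the Il5 transgene, which is expressed from a T cell promoter and makes the mice hypereosinophilic. The series names 3 mice per genotype, so bone marrow and blood libraries may come from the same animals, and the age and sex of the mice are not given in the sources used here. Autophagy needs Atg5, and the comparison asks how its loss changes the transcriptome of eosinophils.

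Total counts were between 18885052 and 30270166 per library. Levels are counts per 1000000 counts of the library (CPM), scaled with TMM factors over the 12 libraries, and levels of different genes are compared only per length, as counts per 1000 exonic bases and 1000000 counts (RPKM). Eosinophil markers such as Prg2 and Epx held 8.04 to 10.2% of the counts in the 6 bone marrow libraries and 1.80 to 4.05% in the 6 blood libraries. The markers did not move alike. In both genotypes Epx, Prg2, Prg3, Ear1, Ear2, Ear6 and Il5ra were lower in blood, while Siglecf and Ccr3 were higher. In control mice Prg2 was at 45177 CPM in bone marrow and 16268 CPM in blood. Siglecf was at 441 and 850 CPM and Ccr3 at 991 and 1575 CPM. The summed share is thus no measure of the number of eosinophils. Red cell genes took 14.6% of control blood replicate 1 and at most 1.42% of any other library. Neutrophil markers held 1.43 to 1.85% of the counts in bone marrow and 0.993 to 1.23% in blood. Of these, Elane was at 521 CPM in control bone marrow and 0.927 CPM in control blood, and Mpo at 1153 and 7.95 CPM. Mmp8, Mmp9 and Retnlg were higher in control blood. The part of neutrophil RNA in the differences between the tissues was not tested. The B cell and T cell marker shares were highest in replicate 1 of Atg5-knockout blood, at 0.220% and 0.0298%, followed by replicate 1 of control blood, at 0.109% and 0.0172%. The level of Atg5 itself was 42.4 ± 2.61 CPM (SD, n = 3) in control bone marrow against 31.9 ± 1.74 CPM in the knockout, and 48.0 ± 9.62 against 47.2 ± 9.13 CPM in blood. Counts over the whole gene do not show whether the floxed part is gone. The paper examined Atg5 mRNA by qPCR and ATG5 protein by immunoblot in eosinophils of both tissues and genotypes. In bulk RNA, fewer cells of a type and less RNA per cell cannot be told apart.

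Gdpd3 (ENSMUSG00000030703) lies on the plus strand of chromosome 7 at chr7:126766334-126775649 in GRCm38, the build of the count table, with 8 exon blocks and 2186 exonic bases. Gm9967 (ENSMUSG00000055323), a long non-coding RNA, lies on the minus strand at chr7:126768082-126776818 with 4 exon blocks and 2193 exonic bases. The genes overlap over 7568 bases, but their exons share 298 bases, which is 13.6% of the exonic bases of Gdpd3. Of these, 102 bases are in the block at chr7:126768120-126768703 and 196 make up the whole last block, at chr7:126775454-126775649. The counting was run without an option for strand, so in the shared bases reads of both genes cannot be told apart, and reads that touched both genes were not counted. This left 1888 exonic bases of Gdpd3 and 1895 of Gm9967 that belong to 1 of the pair.

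**Figure D1:**
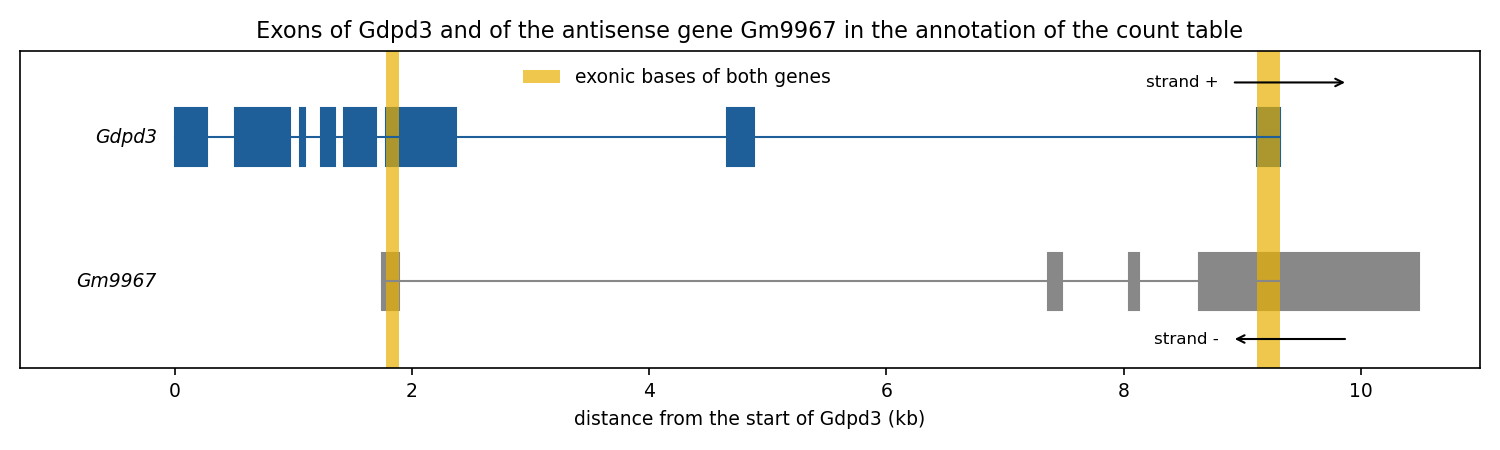
Exon blocks of Gdpd3 (upper row, plus strand) and Gm9967 (lower row, minus strand) along the distance from the start of Gdpd3 in kilobases, in the GRCm38 annotation of the count table. Boxes are exon blocks, lines are introns, and the 2 bands mark the 298 exonic bases that both genes share.

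The other enzymes sit apart from this locus, although 4 of the 7 genes are on chromosome 7. Gdpd5 (ENSMUSG00000035314) is at chr7:99381414-99461877 on the plus strand and Gde1 (ENSMUSG00000033917) at chr7:118688545-118705778 on the minus strand. Gdpd1 (ENSMUSG00000061666) is at chr11:87033867-87074062, Napepld (ENSMUSG00000044968) at chr5:21662901-21701396 and Faah (ENSMUSG00000034171) at chr4:115967145-116017926, all on the minus strand. Gde1 shares 229 exonic bases with Gm45236, a transcript of class TEC on the other strand, and no exonic base of Napepld is shared.

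The sequences upstream of Gdpd3, of Gdpd1, its relative with the same reaction, and of Gde1, the most abundant other enzyme, are shown because Gdpd3 alone of these had distinct levels in the genotypes in both tissues. They come from RefSeq on GRCm38.p6 and run 5′ to 3′ on the strand of the gene, up to the base before the gene starts in the count table or in RefSeq, whichever comes first. Gdpd3 is chr7:126766164-126766333, plus strand, Gdpd1 is chr11:87074138-87074387, minus strand, and Gde1 is chr7:118705779-118705988, minus strand. Capitals mark the only motif matches found in them.
Gdpd3: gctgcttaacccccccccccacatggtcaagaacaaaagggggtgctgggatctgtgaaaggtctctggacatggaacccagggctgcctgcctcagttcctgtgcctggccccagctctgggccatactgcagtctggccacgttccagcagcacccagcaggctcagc
Gdpd1: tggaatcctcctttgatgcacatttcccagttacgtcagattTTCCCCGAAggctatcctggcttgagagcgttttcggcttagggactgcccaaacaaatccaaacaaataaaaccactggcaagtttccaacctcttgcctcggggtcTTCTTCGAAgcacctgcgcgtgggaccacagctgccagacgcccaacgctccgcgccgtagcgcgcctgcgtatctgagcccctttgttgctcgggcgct
Gde1: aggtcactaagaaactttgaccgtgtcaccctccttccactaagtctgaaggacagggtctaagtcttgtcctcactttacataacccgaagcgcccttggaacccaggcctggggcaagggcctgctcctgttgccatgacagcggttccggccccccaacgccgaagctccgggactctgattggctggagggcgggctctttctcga

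Promoters from 250 bases before to 50 bases after the RefSeq start were searched on both strands for CACGTG, the core of the E-box and of the CLEAR element of lysosomal genes, for GATAAG, a site bound by Gata1 and its relatives, for TGANTCA, the AP-1 site, for TGACNNNGC, the antioxidant response element, and for TTCNNNGAA, the STAT site. The AP-1 and antioxidant motifs start alike, and 1 stretch can match both. Of the 7 genes, 5 had a promoter in the table (Gdpd3, Gdpd1, Gde1, Napepld and Faah). None of the 5 motifs occurred in the promoters of Gdpd3 and Gde1. The promoter of Gdpd1 held 2 matches of TTCNNNGAA, at 208 and 100 bases before the start. Napepld had 2 matches of TGACNNNGC, and Faah had 1 match of GATAAG and 1 of TGACNNNGC. Over all 27025 promoters, CACGTG was present in 7.24%, GATAAG in 7.43%, TGANTCA in 7.93%, TGACNNNGC in 12.5% and TTCNNNGAA in 8.47%. The 170 bases shown for Gdpd3 are 62.4% G or C.

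Gdpd3 was far higher in Atg5-knockout than in control eosinophils of both tissues. In control bone marrow its level was 2.46, 1.75 and 3.01 CPM, and in Atg5-knockout bone marrow 48.8, 41.5 and 52.6 CPM. In control blood it was 2.80, 3.03 and 3.39 CPM, and in Atg5-knockout blood 93.9, 136 and 142 CPM. Every Atg5-knockout library was above every control library, and every Atg5-knockout blood library was above every Atg5-knockout bone marrow library, whereas the control libraries of the tissues overlapped. The log2 fold change between the genotypes was 4.27 ± 0.18 (SE) in bone marrow, a 19.3-fold difference, and 5.35 ± 0.25 in blood, a 40.7-fold difference.

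The order of the Gdpd3 levels was Atg5-knockout blood at 124 ± 26.2 CPM (SD, n = 3), Atg5-knockout bone marrow at 47.6 ± 5.66 CPM, control blood at 3.07 ± 0.294 CPM and control bone marrow at 2.41 ± 0.635 CPM. Of neighbours in this order, only the control groups had libraries that overlapped. Among 14712 genes ranked by RPKM, Gdpd3 stood at 1034 in Atg5-knockout blood and at 2153 in Atg5-knockout bone marrow, against 9415 in control blood and 10144 in control bone marrow. In 1 fit of all 12 libraries the difference of the log2 fold changes, blood minus bone marrow, was 1.03 ± 0.30 (SE). The lowest Atg5-knockout blood value was that of replicate 1, the library with the highest lymphocyte marker shares. Without replicate 1 of both blood groups, a setting chosen after these shares were seen, the log2 fold change in blood was 5.45 ± 0.23.

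**Figure D2:**
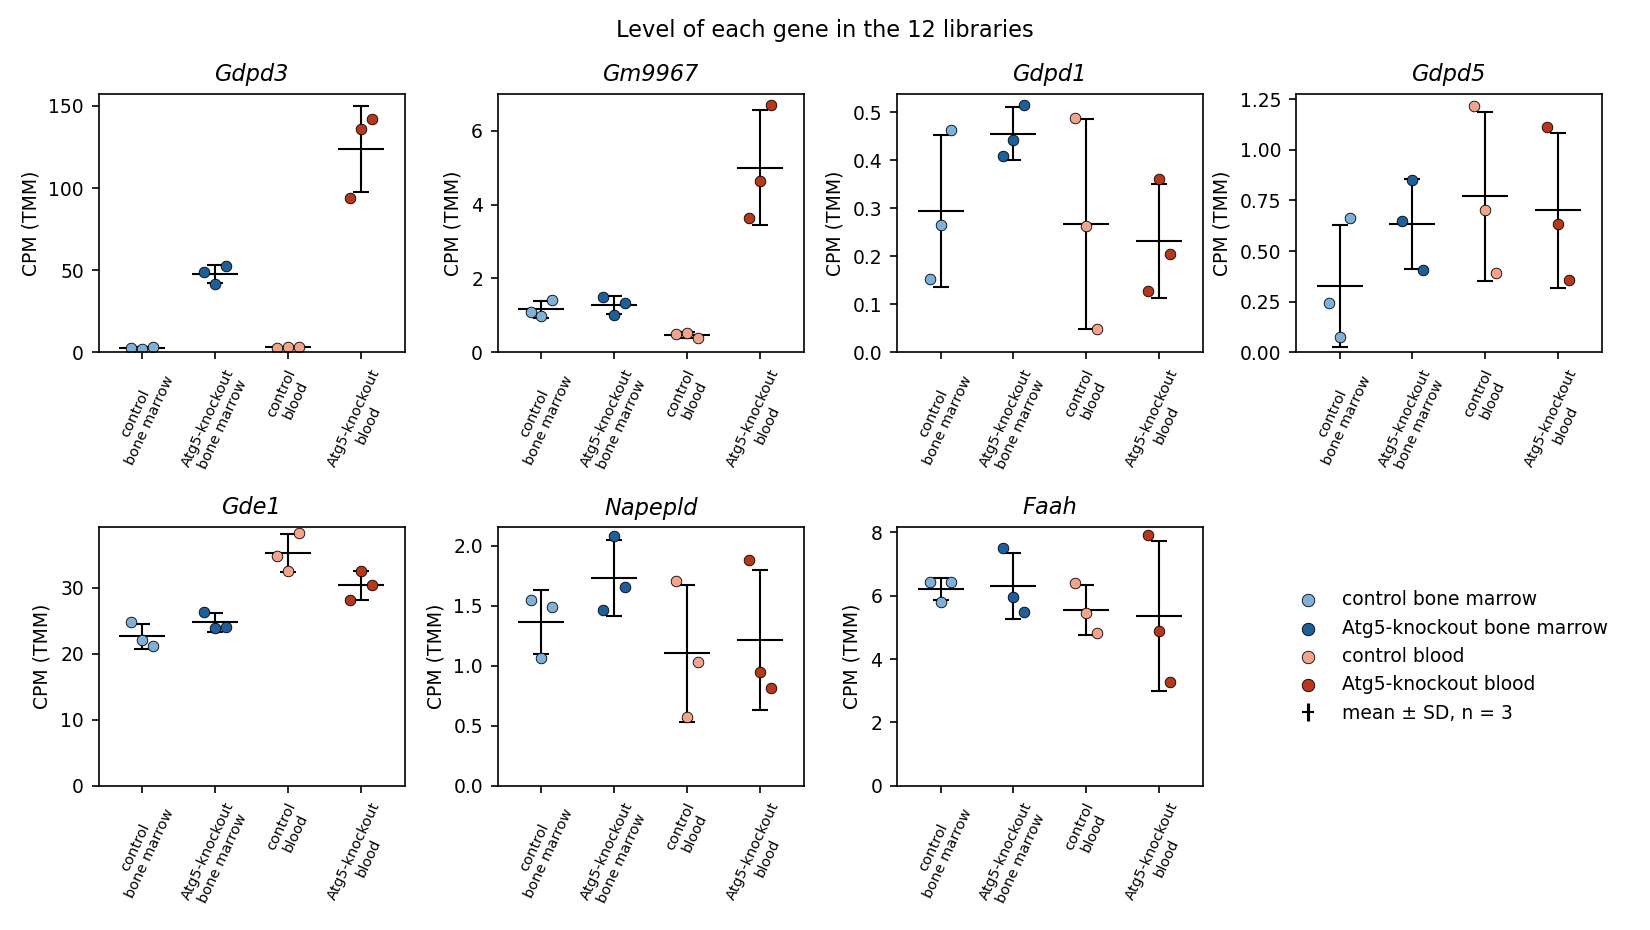
Level of each gene in CPM (linear axes from 0, a separate scale per gene) in the 3 libraries of each group, with points ordered by replicate number and bars for the mean ± SD. Gdpd3 separates the genotypes in both tissues. In blood Gm9967 does so too, and Gde1 by a narrow margin, with the Atg5-knockout libraries lower.

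Gm9967, the antisense gene, followed Gdpd3 in blood and not in bone marrow. In control bone marrow it had 36, 26 and 43 counts (1.09, 0.987 and 1.42 CPM) and in Atg5-knockout bone marrow 44, 32 and 36 counts (1.499, 1.01 and 1.33 CPM). In control blood it had 8, 12 and 8 counts (0.488, 0.528 and 0.393 CPM), and in Atg5-knockout blood 85, 103 and 131 counts (3.64, 4.65 and 6.69 CPM). The genotypes overlapped in bone marrow, while in blood every Atg5-knockout library was above every control library. The log2 fold change was 0.096 ± 0.32 (SE) in bone marrow and 3.41 ± 0.45 in blood, and the difference of the log2 fold changes was 3.27 ± 0.52.

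The ratio of Gm9967 counts to Gdpd3 counts restates the same values for each library, and it was lower in the Atg5-knockout libraries of both tissues. Without an option for strand, the Gm9967 counts are not known to be antisense reads. Per 100 counts of Gdpd3, Gm9967 had 44.4 to 56.5 counts in control bone marrow, 11.6 to 17.4 in control blood, 2.43 to 3.07 in Atg5-knockout bone marrow and 3.42 to 4.71 in Atg5-knockout blood. These ranges of the 4 groups did not overlap. In bone marrow the mean level of Gdpd3 was 45.2 CPM higher in Atg5-knockout than in control cells and that of Gm9967 was 0.109 CPM higher, which is 0.241 per 100 CPM of Gdpd3. In blood the differences were 121 and 4.52 CPM, or 3.74 per 100 CPM of Gdpd3. The counts of Gm9967 are therefore no fixed share of those of Gdpd3. Whether reads of Gdpd3 transcripts outside its annotated exons are part of the Gm9967 counts was not tested.

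**Figure D3:**
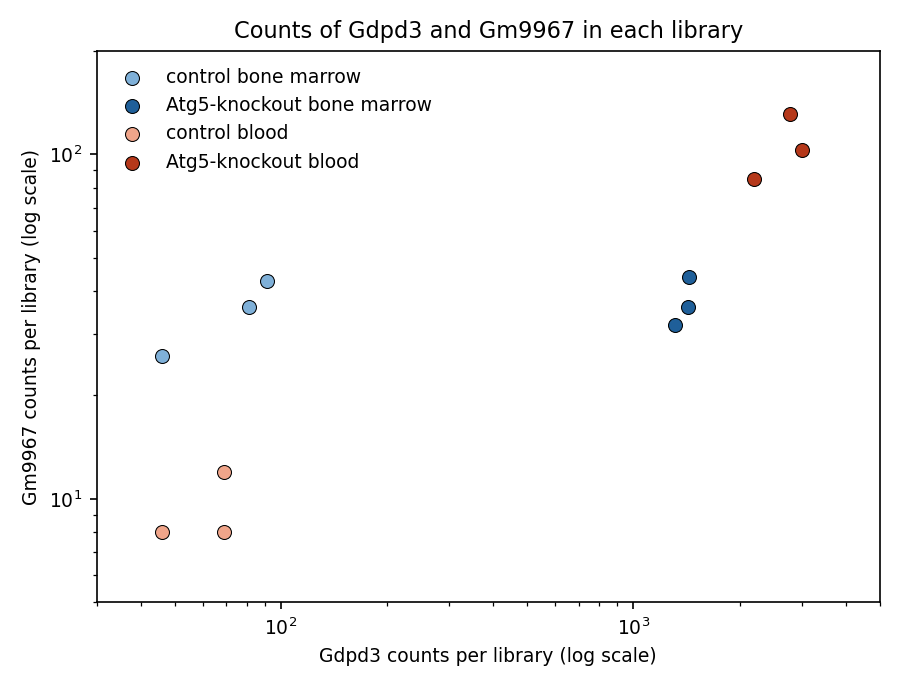
Counts of Gm9967 against counts of Gdpd3 in each of the 12 libraries, both axes on a log scale, coloured by group. The Atg5-knockout bone marrow libraries have 1316 to 1434 counts of Gdpd3 at 32 to 44 counts of Gm9967, about as many of Gm9967 as the control bone marrow libraries, while Atg5-knockout blood has 85 to 131.

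Gdpd1, which catalyses the same reaction as Gdpd3, had few counts in every library. It had 5, 7 and 14 counts in control bone marrow, 12, 14 and 14 in Atg5-knockout bone marrow, 8, 6 and 1 in control blood and 3, 8 and 4 in Atg5-knockout blood. The genotypes overlapped in both tissues. Its log2 fold change in bone marrow was 0.60 ± 0.51 (SE), and in blood, with 15 counts in each genotype, it did not pass the filter on low counts.

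Gde1 was per length the most abundant of the other enzymes, at 13.4 to 20.8 RPKM in the group means, and its coefficient of variation within groups was 5.72 to 8.40%. Its level was 24.8, 22.1 and 21.1 CPM in control bone marrow and 26.4, 23.9 and 24.0 CPM in Atg5-knockout bone marrow, with overlap. In control blood it was 34.9, 32.6 and 38.3 CPM and in Atg5-knockout blood 28.2, 32.5 and 30.4 CPM, so that the Atg5-knockout blood libraries were all below the control ones by a narrow margin. The log2 fold change between genotypes was 0.099 ± 0.11 (SE) in bone marrow and -0.20 ± 0.18 in blood.

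Gdpd5, the glycerophosphocholine phosphodiesterase, was low and variable. It had 8, 2 and 20 counts in control bone marrow, 19, 27 and 11 in Atg5-knockout bone marrow, 20, 16 and 8 in control blood and 26, 14 and 7 in Atg5-knockout blood, with overlap between genotypes in both tissues. Its log2 fold change was 0.91 ± 0.60 (SE) in bone marrow and -0.10 ± 0.70 in blood.

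Of the enzymes of N-acyl ethanolamines, the synthetic enzyme Napepld was at 1.55, 1.06 and 1.49 CPM in control bone marrow, 1.46, 2.08 and 1.66 CPM in Atg5-knockout bone marrow, 1.71, 0.572 and 1.03 CPM in control blood and 1.88, 0.948 and 0.817 CPM in Atg5-knockout blood. Its log2 fold change was 0.31 ± 0.29 (SE) in bone marrow and 0.17 ± 0.61 in blood. The hydrolase Faah was at 6.42, 5.81 and 6.42 CPM in control bone marrow, 7.49, 5.96 and 5.49 CPM in Atg5-knockout bone marrow, 6.40, 5.45 and 4.81 CPM in control blood and 7.92, 4.87 and 3.27 CPM in Atg5-knockout blood. Its log2 fold change was -0.0071 ± 0.18 in bone marrow and -0.033 ± 0.38 in blood. Libraries of the genotypes overlapped for both enzymes in both tissues.

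Napepld, Faah and Gdpd5 were each highest, within both blood groups, in replicate 1. These are the libraries with the highest shares of B and T cell markers. The summed share of the 8 B cell markers ran from 0.0372 to 0.0402% in bone marrow, from 0.0149 to 0.109% in control blood and from 0.0263 to 0.220% in Atg5-knockout blood. That of the 8 T cell markers ran from 0.000905 to 0.00117% in bone marrow, where Cd3e was at 0, from 0.00213 to 0.0172% in control blood and from 0.00361 to 0.0298% in Atg5-knockout blood. Their part in the levels of the 3 enzymes was not tested. Without both replicate 1 blood libraries, the log2 fold change of Faah in blood was -0.32 ± 0.37 (SE), of Napepld 0.16 ± 0.71 and of Gdpd5 -0.13 ± 0.84.

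Counted over the 7 genes, the genotypes did not overlap for 1 in bone marrow (Gdpd3), where 14.4% of all tested genes did not overlap, and for 3 in blood (Gdpd3 and Gm9967 above, Gde1 below), where 7.59% did not. Since the genes were selected on these contrasts, nothing is read from the counts. Gdpd3 made up 54.7 to 60.7% of the summed RPKM of the 6 enzymes in Atg5-knockout bone marrow and 70.1 to 77.6% in Atg5-knockout blood. In the controls its share was 5.34 to 8.98% in bone marrow and 5.45 to 6.39% in blood. The sum of the other 5 enzymes ran from 13.98 to 17.2 RPKM over the 6 bone marrow libraries and from 18.4 to 23.6 RPKM over the 6 blood libraries.

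**Figure D4:**
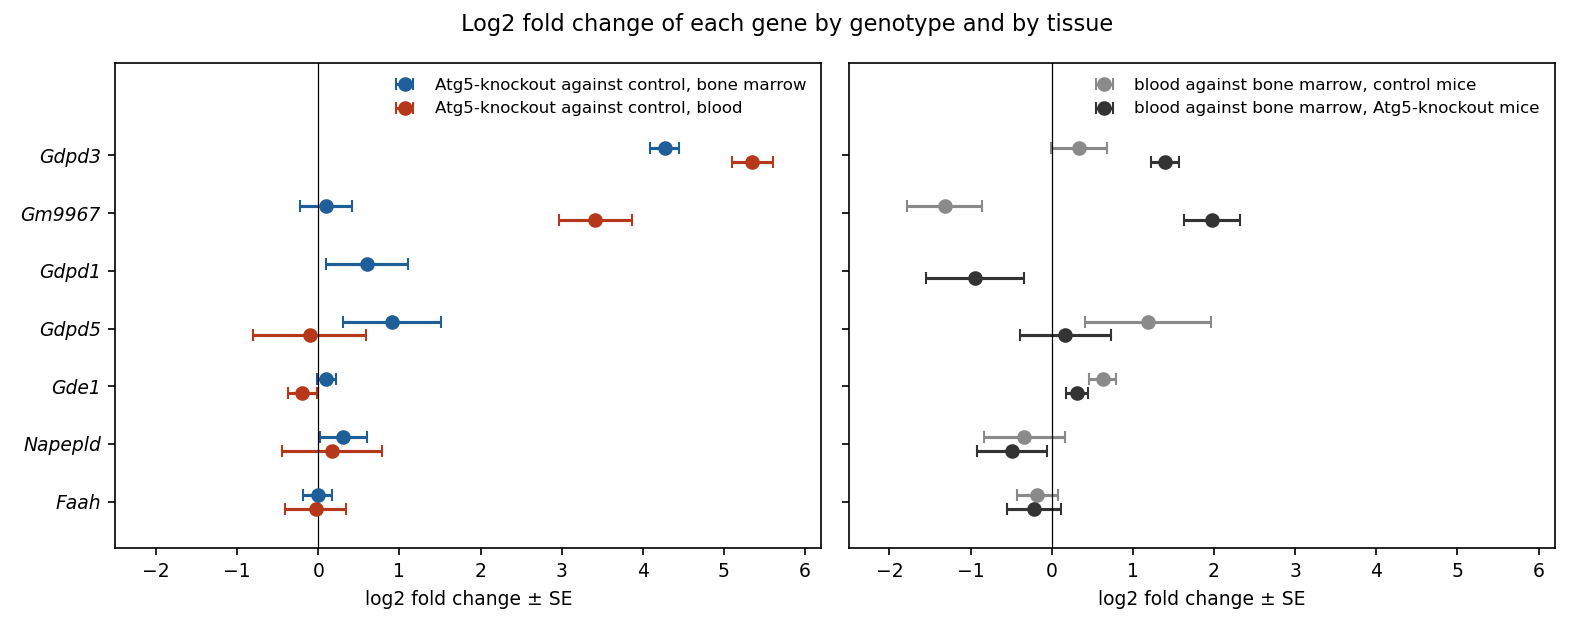
Log2 fold change ± SE of each gene, on the left for Atg5-knockout against control in bone marrow and blood, and on the right for blood against bone marrow in control and in Atg5-knockout mice (edgeR, 3 libraries against 3 in each). Gdpd3 lies at 4.27 and 5.35 on the left, and Gm9967 lies on opposite sides of 0 on the right. Gdpd1 has no value where it did not pass the filter on low counts.

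The comparison of blood with bone marrow in control mice did not enter the choice of the genes and was tested. With edgeR's quasi-likelihood test and Benjamini-Hochberg adjustment over 13669 genes, 34.2% of all genes passed an adjusted p of 0.05. Of the 6 of the 7 genes that passed the filter on low counts, Gm9967 is given without a test, and 1 of the others passed. This was Gde1, which was higher in blood, with a log2 fold change of 0.63 ± 0.16 (SE, adjusted p = 0.0174) and all blood libraries above all bone marrow libraries. This call was lost without control bone marrow replicate 2 (adjusted p = 0.079) or replicate 3 (adjusted p = 0.108), and with library sizes in place of TMM factors the log2 fold change was 0.32 (adjusted p = 0.157). That scaling moved the median log2 fold change of all genes to -0.31.

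Gm9967 was lower in control blood than in control bone marrow in every library, with a log2 fold change of -1.32 ± 0.46 (SE, edgeR). With 8, 12 and 8 counts in blood and 36, 26 and 43 in bone marrow, it passed the filter only through the bone marrow libraries. This sets the direction of its value, so it is given without a test. Between the tissues, 50.0% of all genes had no overlap in control mice. Gdpd3 was at 0.34 ± 0.35 (adjusted p = 0.481), Gdpd5 at 1.19 ± 0.77 (adjusted p = 0.267), Napepld at -0.34 ± 0.50 (adjusted p = 0.634) and Faah at -0.18 ± 0.25 (adjusted p = 0.622) in the same edgeR fit. Gdpd1 did not pass the filter, with 15 counts in blood and 26 in bone marrow. The log2 fold change of Gm9967 ran from -1.63 to -1.16 over the alternative settings.

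In Atg5-knockout mice the same comparison was tested only for Gde1, Gdpd5, Napepld and Faah, and 0 of these 4 passed an adjusted p of 0.05, which 47.6% of all 13853 genes did. Gde1 was again higher in each blood library, at 0.31 ± 0.13 (SE, edgeR, adjusted p = 0.081, unadjusted p = 0.0431). It was the only one of the 4 with an unadjusted p under 0.05. Without Atg5-knockout blood replicate 1 its log2 fold change was 0.36 (adjusted p = 0.0437). Over all alternative settings the log2 fold change of Gde1 was as low as 0.078, and its adjusted p was as high as 0.660. Gdpd1, with 3, 8 and 4 counts in blood and 12, 14 and 14 in bone marrow, passed the filter only through the bone marrow libraries, which sets the direction of its value of -0.95 ± 0.60, so it is given without a test. Gdpd3 and Gm9967 were higher in each blood library, at 1.39 ± 0.18 and 1.98 ± 0.34, given without a test. In all, 4 of the 7 genes did not overlap (Gde1, Gdpd3 and Gm9967 above, Gdpd1 below), against 60.0% of all genes, and 3 of these 4 are the genes given without a test.

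None of the genes next to Gdpd3 passed the test between genotypes. All 11 other genes within 100 kb that had at least 10 counts in a library were tested, and 0 passed in either tissue by edgeR. Of all tested genes only 0.348% passed in bone marrow and 0.0371% in blood, so nothing is read from 0 of 11. The log2 fold changes of the 11 genes were -0.38 to 0.74 in marrow and -0.20 to 0.96 in blood. Mapk3, the gene of the kinase ERK1, ends 515 bases before Gdpd3 and was at -0.33 in bone marrow and -0.18 in blood. Ypel3 begins 1306 bases after it and was at -0.35 and -0.19. The other tested neighbours were Sult1a1, Slx1b, Bola2, Coro1a, Tbx6, Ppp4c, Aldoa, Ino80e and Hirip3. At an unadjusted p under 0.05 in edgeR there was 1 in bone marrow, beside 1333 of all 13781 genes, and 0 in blood, beside 347 of all 13460.

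The genes most like Gdpd3 in level were looked up among all genes. Since they are the highest of many, a higher correlation than in the family is no result about the family. Over log2 CPM in the 12 libraries, the 5 genes with the highest Pearson correlation with Gdpd3 among 14705 were Arg2 (r = 0.995), Gm2539 (0.972), Or2n2-ps1 (0.972), Gm15931 (0.958) and Fbxl13 (0.952). Arg2, the mitochondrial arginase on chromosome 12, was at 27.5 CPM in Atg5-knockout and 1.54 CPM in control bone marrow, and at 71.4 and 1.77 CPM in blood. Gm2539, Or2n2-ps1 and Fbxl13 were at 0 CPM in control blood and at most 0.0212 CPM in control bone marrow. In Atg5-knockout cells they were at 0.274 to 0.675 CPM in bone marrow and 1.06 to 1.83 CPM in blood. They thus passed the filter on low counts only through the Atg5-knockout libraries. Among the members, r was 0.796 for Gm9967, 0.311 for Gdpd5, 0.142 for Gdpd1, 0.124 for Napepld, 0.0539 for Gde1 and -0.215 for Faah. The 12 points fall into the 4 groups that set Gdpd3, so these values only describe the likeness. Only 8 genes had r over 0.9.

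A wider set of 75 genes of the same pathways, in 6 lists, was tested in all comparisons. It held other phosphodiesterases of the family, phospholipases and lysophospholipases, enzymes that acylate or dephosphorylate lysophosphatidic acid, lysophospholipid receptors, enzymes and receptors of endocannabinoids, and enzymes of glycerol phosphate, choline and ethanolamine. Between the genotypes 0 of the 52 that could be tested in bone marrow and 0 of 51 in blood passed an adjusted p of 0.05 with edgeR, against 0.348% and 0.0371% of all tested genes, or 48 and 5 genes. Their median log2 fold changes were -0.0061 and 0.0022, beside 0.0029 and 0.0062 over all genes. At an unadjusted p under 0.05 there were 12 of the 52 in bone marrow, beside 1333 of all 13781 genes, and 0 of the 51 in blood, beside 347 of all 13460. With DESeq2 there were 2 in bone marrow (Gpr34 and Lpar6) and 0 in blood, and with limma-voom 0 in both.

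The related genes with the lowest p in bone marrow were both receptors. Gpr34, a receptor of lysophosphatidylserine, was at 35.6 ± 6.41 CPM (SD, n = 3) in control bone marrow against 24.8 ± 1.94 CPM in the knockout, with a log2 fold change of -0.55 ± 0.14 (SE, edgeR, adjusted p = 0.157). Lpar6, a receptor of lysophosphatidic acid, was at 3.99 ± 0.857 against 7.15 ± 1.03 CPM, with 0.81 ± 0.21 (adjusted p = 0.177). Both had no overlap between genotypes in bone marrow, as had 14.4% of all tested genes. Since they were picked by their p in this comparison, the separation adds nothing to it. In blood Gpr34 was at -0.051 ± 0.41 and Lpar6 at 0.61 ± 0.32 (both adjusted p = 0.99997). The genes with the lowest p in blood were Mboat7, a lysophosphatidylinositol acyltransferase, at 0.45 ± 0.21, and Pcyt1a, the rate-limiting enzyme of phosphatidylcholine synthesis from choline, at -0.60 ± 0.31 (both adjusted p = 0.99997). Enpp2, which encodes autotaxin, the secreted lysophospholipase D, had 0 counts in control bone marrow, 9 in Atg5-knockout bone marrow, 10 in control blood and 11 in Atg5-knockout blood and was not tested.

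**Figure D5:**
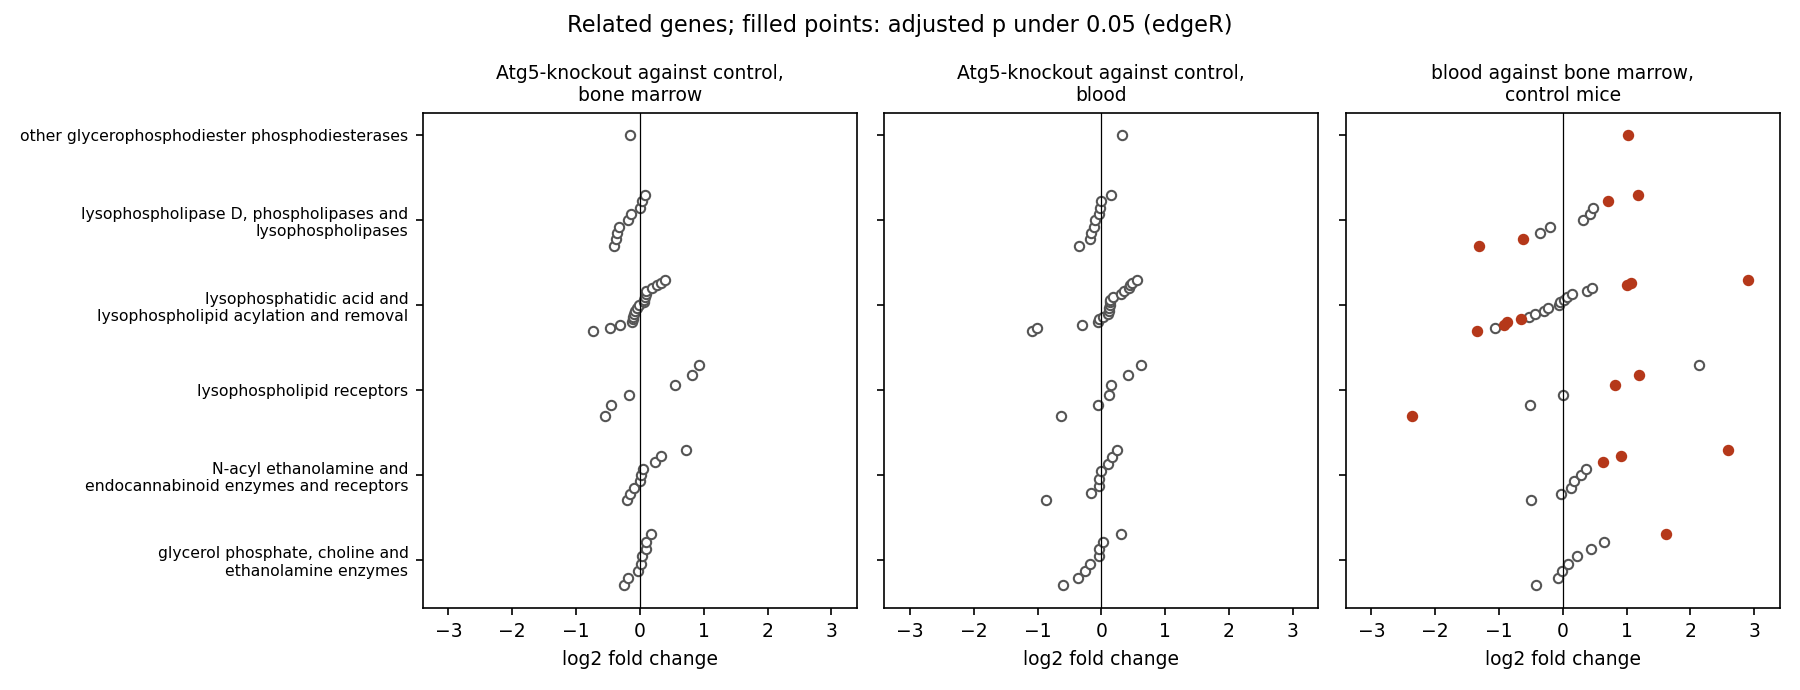
Log2 fold changes of the related genes that could be tested, in 6 lists (rows), for Atg5-knockout against control in bone marrow (left) and blood (middle) and for blood against bone marrow in control mice (right). Filled points passed an adjusted p of 0.05 by edgeR, which is 0 of 52, 0 of 51 and 19 of 52.

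In control mice 12 of 52 related genes rose in blood and 7 fell by edgeR, while 34.2% of all genes were called, 16.2% higher and 18% lower, so that the share called among the related genes was near that of all genes. They had a median log2 fold change of 0.11 beside -0.0029 over all genes. With library sizes in place of TMM factors the split was 8 higher and 12 lower. Agpat3, a lysophosphatidic acid acyltransferase, rose by 2.90 ± 0.52 (SE, adjusted p = 0.00333) and Plaat3, an acyltransferase that forms N-acyl phosphatidylethanolamine, by 2.58 ± 0.60 (adjusted p = 0.0107). Both were highest in control blood replicate 1, the control library with the most lymphocyte marker and red cell counts, where Plaat3 was at 62.7 CPM against 11.7 CPM in the lowest of the group and Agpat3 at 19.9 against 4.96 CPM. Without that library the log2 fold change was 1.41 for Plaat3 (adjusted p = 0.000982) and 2.12 for Agpat3 (adjusted p = 0.000659). Plaat3 was not called without control bone marrow replicate 1 (adjusted p = 0.0525), and without that bone marrow library or replicate 2 or 3 of its group 10, 12 and 11 related genes passed. Gpr34 fell by 2.36 ± 0.20 (adjusted p = 7.36e-05), Pcyt1a rose by 1.62 ± 0.28 (adjusted p = 0.00292), and Abhd12, a lysophosphatidylserine lipase, by 1.17 ± 0.17 (adjusted p = 0.00109).

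By list, the control comparison called 1 of 1 tested phosphodiesterases of the family, 4 of 9 phospholipases and lysophospholipases (2 higher and 2 lower), 7 of 19 acylating and dephosphorylating enzymes (3 and 4), 3 of 6 receptors (2 and 1), 3 of 9 endocannabinoid genes (all higher) and 1 of 8 in the glycerol phosphate list (higher). The phosphodiesterase was Gpcpd1, which hydrolyses glycerophosphocholine, at 109 ± 24.0 CPM (SD, n = 3) in blood and 53.7 ± 17.1 CPM in bone marrow of control mice. Its log2 fold change was 1.01 ± 0.27 (SE, edgeR, adjusted p = 0.0204). Per length it was at 15.02 RPKM in control blood, below the 20.8 RPKM of Gde1 and above the 1.41 RPKM of Gdpd3.

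In Atg5-knockout mice 19 of 52 related genes rose in blood and 12 fell, where 23.5% of all genes rose and 24.1% fell. The median was 0.20 beside -0.010 over all genes. Leaving out Atg5-knockout bone marrow replicate 2 or 3 left 20 calls each. Agpat3 rose by 3.06 ± 0.53 (SE, edgeR, adjusted p = 0.00158), and by 2.35 (adjusted p = 0.000507) without Atg5-knockout blood replicate 1. Gpcpd1 rose by 1.48 ± 0.14 (adjusted p = 7.22e-05) and Agpat4, a lysophosphatidic acid acyltransferase, by 1.37 ± 0.19 (adjusted p = 0.000427). Mboat2, a lysophospholipid acyltransferase, fell by 2.46 ± 0.39 (adjusted p = 0.000976) and Lpar5, a lysophosphatidic acid receptor, by 2.09 ± 0.38 (adjusted p = 0.00213). Gpr174, a lysophosphatidylserine receptor of lymphocytes, was at 2.40 ± 0.67 (adjusted p = 0.0170), and its call was lost without Atg5-knockout blood replicate 1, where the log2 fold change was 1.22 (adjusted p = 0.0541), and without bone marrow replicate 1 (adjusted p = 0.0724) or 3 (adjusted p = 0.0735). That blood library held the highest B and T cell marker shares. The blood and bone marrow comparisons of the genotypes were also set against each other by an interaction test over all 12 libraries, in which 0 of 53 related genes passed an adjusted p of 0.05 with edgeR and 3 had an unadjusted p under 0.05, beside 0 and 740 of all 14712 genes.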

How the data were processed

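RNA of eosinophils isolated by negative depletion with antibodies was sequenced as stranded single-end libraries. Before depletion, blood was layered over a density medium and its red cells were lysed with water, while bone marrow was flushed out and filtered. Differences between the tissues and between these procedures cannot be told apart. The authors deposited raw counts per gene, made with HISAT2 2.2.1 and featureCounts 2.0.1. The file header names Ensembl release 92 on GRCm38, no option for strand, multi-mapping or overlapping reads, and a paired-end setting, which does not match the single-end libraries. The paper names a GRCm39 annotation instead, so positions here follow the header. Symbols came from GENCODE M39, used for names only, and upstream sequences from RefSeq on GRCm38.p6.

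The 7 genes and all gene lists were chosen with earlier results of these data known. Each comparison was fitted on its 6 libraries with edgeR 4.0.16 (R 4.3.3) by the quasi-likelihood test, with TMM factors, the filter of filterByExpr (minimum count 10, minimum total 15), a prior count of 0.125 and Benjamini-Hochberg adjustment over all tested genes at 0.05. The SE is the log2 fold change divided by the square root of F. The paper used DESeq2, which was an alternative here (1.42.0), as was limma-voom (limma 3.58.1). The method was tested on simulated data. The labels do not say that libraries of a group came from separate animals beyond the 3 mice per genotype, so p-values measure the spread between these libraries, which differed within every group by more than sampling noise.

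Text names all 7 genes and, per comparison, all related genes called if at most 6, otherwise the 4 with the largest change, and the 2 with the lowest p. It also names the neighbours within 100 kb and the 5 genes most correlated with Gdpd3. Gpcpd1 in control mice, Enpp2, and Gpr34 and Lpar6 in blood were added after their values were seen.

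Replicate numbers were checked by correlating the deviations of same-numbered libraries from their group means. In blood r was 0.499, 0.208 and 0.298 for replicates 1, 2 and 3 of the genotypes. Libraries with unlike numbers were not correlated, so these values do not settle whether the numbers pair the libraries. In bone marrow r was -0.147, -0.105 and 0.00414, and between tissues at most 0.129. No pairing was taken in the main fits of either tissue.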

Additional observations from a re-analysis of the deposited data

Results flagged for a closer look

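Gm9967 differed between blood and bone marrow in opposite directions in the genotypes. In control mice all 3 blood libraries were below all 3 bone marrow libraries, with a log2 fold change of -1.32, and in Atg5-knockout mice all 3 blood libraries were above all 3 bone marrow libraries, with 1.98. This drew attention because every library of a group moved to the same side, and the side differed between the genotypes. Separation of the tissues within a genotype is common, at 50.0% of all genes in control and 60.0% in Atg5-knockout mice. How many of all genes took opposite sides in the genotypes was not counted. Gm9967 was chosen for its relation to Gdpd3 in these data, so the difference is given without a test of its own. In the interaction test over all 12 libraries, 0 of 14712 genes passed an adjusted p of 0.05 with edgeR. The Gm9967 counts were 28 in control blood, 105 in control bone marrow, 319 in Atg5-knockout blood and 112 in Atg5-knockout bone marrow, each summed over 3 libraries.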

How the results depend on the processing

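Over the alternatives, the log2 fold change of Gdpd3 ran from 4.26 to 4.30 in bone marrow and from 5.31 to 5.45 in blood, and with 1 library left out from 4.10 to 4.45 and from 5.23 to 5.50. With the replicate block it was 4.29 in bone marrow and 5.34 in blood, where the numbers pair the libraries, and the block changed no call of the 7 genes and left the counts of related genes between genotypes at 0. Related genes called between genotypes in bone marrow went from 0 to 5 without a filter on low counts (Pla2g15, Lpcat2, Lpar6, Gpr34 and P2ry10, of which Lpar6 was higher), to 2 with DESeq2, and to 0 to 1 with 1 library left out, the 1 being Gpr34 without control bone marrow replicate 1. All genes called in bone marrow were 48 in the analysis as reported, 420 without a filter, 193 with DESeq2, 12 in 1 fit of all 12 libraries, 23 with the replicate block and 18 to 219 with 1 library left out (219 without control replicate 1, 18 without control replicate 3, 24 without knockout replicate 1 or 2). In blood they were 5, 77 without a filter, 22 with DESeq2, 16 in the 12-library fit, 10 with the block and 2 to 6 with 1 library left out (2 without replicate 2 or 3 of either genotype, 3 without knockout replicate 1). Between the tissues in control mice they were 4678, and 3041, 2994 and 2627 without control bone marrow replicate 1, 2 and 3. Between the tissues in control mice, with Gm9967 given without a test, Gde1 was called with a filter of 1 CPM in 3 libraries and in the 12-library fit. With 1 library left out, 0 to 1 of the 7 genes were called there, and with library sizes alone Gde1 was not called. Related genes called there were 10 to 26 with 1 library left out, against 19. In Atg5-knockout mice 0 to 1 of the 7 genes were called with 1 library left out, the 1 being Gde1 without blood replicate 1. No direction of a called value reversed. Scaling by library size moved the median log2 fold change of all genes to -0.31 between the tissues in control mice and to -0.24 in Atg5-knockout mice. Depth limits Gdpd1, with 1 to 14 counts per library, and Gdpd5, with 2 to 27. Counting intervals were not used, since without molecular identifiers reads are not independent.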
